A study of Mus musculus with 12 samples.

Results

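The 10 genes described here encode the core of the DNA damage checkpoint: *Atm*, *Atr*, *Atrip*, *Topbp1*, *H2afx*, *Mdc1*, *Brca1*, *Brca2*, *Chek1* and *Chek2*. They were chosen by name, with earlier results of these data known, and all 10 were found among the 20981 genes of the expression tables. The study sequenced the RNA that comes down with ORF1p, the RNA-binding protein of the LINE-1 (L1) retrotransposon, from testes of mice without *Mael*, a gene of the piRNA pathway. Each of the 4 kinds of sample had 3 libraries, 12 in all. TOTAL was the clarified lysate of testes from C57BL/6 *Mael*-/- mice aged 3 months, with EDTA added to 10 mM so that ribosomes come apart. INPUT was the pool of fractions 5 to 8 after that lysate was spun through a gradient of 10 to 50% sucrose. IP was INPUT precipitated with an antibody against L1 ORF1p, and BO (Beads Only) was INPUT put on the same beads with no antibody. Every group therefore carried the same *Mael* deletion, and no sample with a working *Mael* gene was analysed here. The labels number the replicates but do not say that they came from different animals, so the spread between libraries may be technical.

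ATM and ATR are the kinases at the top of the checkpoint. ATM answers to double-strand breaks, whereas ATR, held at single-stranded DNA by its partner ATRIP and switched on by TOPBP1, answers to stalled replication and to unsynapsed chromosomes. Both phosphorylate the histone variant H2AX at the lesion, MDC1 binds the phosphorylated histone and spreads the signal, BRCA1 and BRCA2 serve homologous recombination, and CHK1 and CHK2 carry the signal to the cell cycle. In male meiosis the same proteins process programmed breaks, and BRCA1, ATR, TOPBP1, MDC1 and H2AX silence the X and Y chromosomes in pachytene spermatocytes.

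The precipitation and the tissue were checked first. Normalised counts of L1Md_A, a young L1 subfamily, lay between 56029 and 95645 in the IP libraries, above the 14131 to 15633 of BO, the 17934 to 27258 of INPUT and the 18284 to 26309 of TOTAL. *Mael* had group means of 0.650 in TOTAL, 0.502 in BO and 0 in INPUT and IP, at or below a few reads. All 5 spermatocyte markers were present in TOTAL, with a median of 3026, while the 5 spermatid markers had means of 11.7 to 39.3. The 5 Leydig cell markers had a median of 14852 in TOTAL, the 5 Sertoli cell markers 1527 and the 5 spermatogonia markers 518, so the lysate was a mixture of cell types, and in such bulk RNA fewer cells of a type and less RNA per cell cannot be told apart. One BO library stood apart. Large-subunit rRNA took 52.1% of the repeat counts in BO replicate 3 but 3.18% to 3.25% in the other BO libraries, and since gene values for BO exist only as a mean of 3 libraries, that library could not be left out of the values below.

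For genes, the deposited values are group means of normalised read counts, made separately for IP with BO, IP with INPUT and IP with TOTAL. IP means occur in all 3 sets, each on its own scale, which allowed the whole number of reads in each IP library to be worked out, whereas for TOTAL, INPUT and BO the values used here are a mean with no spread. The IP libraries held 21387454, 20549345 and 19754089 reads on genes, and are called A, B and C in that order because nothing ties them to replicate numbers. The ratio to BO compares beads with antibody and bare beads, and the ratio to INPUT compares the precipitate with the pooled fractions. The ratio to TOTAL joins fractionation and precipitation. Because counts were normalised within each pair of groups, a ratio is relative to the rest of the counted RNA. It does not give an amount of RNA gained or lost. Ratios are given as the log2 of the IP mean over the other mean, with 1 added to each. They carry no test, and the authors' own tests were set aside. A gene is called higher or lower in IP when its ratio is past 2-fold, that is, past 1 on the log2 scale, and ranges in parentheses are over the 3 IP libraries.

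The genes lie on 4 chromosomes of mm10, and positions and transcripts are those of GENCODE M21. *Atm* (chr9:53439149-53536740), *Atrip* (chr9:109057933-109074124) and *Chek1* (chr9:36708482-36727065) are on the minus strand of chromosome 9. *Atr* (chr9:95857597-95951781), *Topbp1* (chr9:103305215-103350428) and *H2afx* (chr9:44334694-44336077) are on its plus strand. *Mdc1* (chr17:35841515-35859670), *Brca2* (chr5:150522630-150570329) and *Chek2* (chr5:110839979-110874145) are on plus strands, and *Brca1* (chr11:101488764-101551955) is on the minus strand. All are protein coding. Their longest transcripts run from 1384 nt in a single exon for *H2afx* to 10724 nt in 27 exons for *Brca2*. *Atrip* shares 109057933 to 109059734 with the exonuclease gene *Trex1* on the same strand, and how reads in this stretch were assigned is not given in the sources used here. *Trex1* itself had means of 194 in TOTAL and 118 in IP.

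Most of the checkpoint mRNAs had higher normalised counts in the immunoprecipitate than in the lysate, and *H2afx* had a lower one. Against TOTAL, 7 of the 10 genes were higher in IP past 2-fold (*Atm*, *Atr*, *Atrip*, *Topbp1*, *Mdc1*, *Brca1*, *Brca2*) and 1, *H2afx*, was lower. Over all 14666 genes with a mean of at least 10 in the 2 groups, 20.4% were higher and 26.2% lower. The median ratio of the 10 genes was 1.89 and that of all genes -0.03. Against INPUT, 6 were higher (*Atm*, *Atr*, *Topbp1*, *Mdc1*, *Brca2*, *Chek1*) and none lower, beside 20.5% and 14.6% of 14400 genes, with medians of 1.259 and 0.15. Against BO, 6 were higher (*Atr*, *Atrip*, *H2afx*, *Mdc1*, *Brca2*, *Chek1*) and none lower, but here 43.9% of 13634 genes were higher and 11.2% lower, and the medians were 1.29 and 0.81. *Atr*, *Mdc1* and *Brca2* are on all 3 lists. The share of all genes past 2-fold in all 3 comparisons was not counted, so this overlap does not set them apart. With ratios to BO centred on the median gene, *Atr* (0.83) and *Brca2* (0.48) were no longer past 2-fold against BO. All 3 comparisons share the IP libraries, so their values for a gene are not independent.

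Cell type markers also differed between IP and the other groups. All 5 spermatocyte markers were higher in IP past 2-fold in each comparison, with median ratios of 2.65 to TOTAL, 2.55 to INPUT and 3.55 to BO, and their summed count was 18543 in TOTAL and between 102919 and 140243 in the IP libraries. Against TOTAL, all 5 Leydig cell markers and 4 of 5 Sertoli cell markers were lower. Their summed counts were 77573 and 8273 in TOTAL, against 13396 to 18407 and 2704 to 3689 in the IP libraries. None of the 5 spermatogonia markers was past 2-fold against TOTAL (median -0.36), with sums of 3872 in TOTAL and 2640 to 3631 in IP. The 5 spermatid markers summed to 116 in TOTAL and 2.33 to 3.87 in IP, where 1 of them, *Prm2*, was at 0. Against INPUT, 4 of 5 Leydig cell, 4 of 5 spermatid, 2 of 5 Sertoli cell and 1 of 5 spermatogonia markers were lower and none of these was higher. Against BO, 2 of 5 Leydig cell markers were higher and none lower, 2 of 5 Sertoli cell markers were lower and none higher, and of the 5 spermatogonia markers 2 were lower and 1 higher, at 2.07. The part of cell type in the ratios of the checkpoint genes was not tested.

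**Figure D1:**
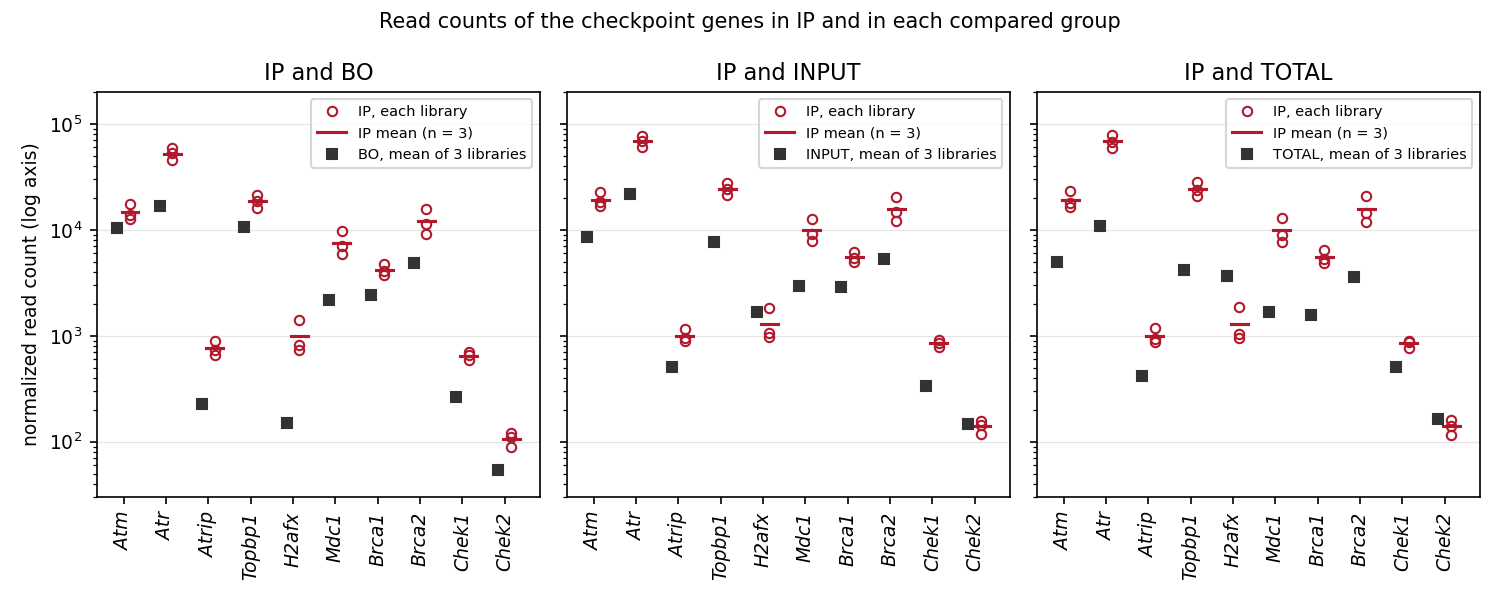
Normalised read counts (log axis) of the 10 checkpoint genes, in 3 panels that were normalised separately: IP with BO, IP with INPUT and IP with TOTAL. Open circles are the 3 IP libraries, the bar is their mean and the square is the mean of the other group. In the IP and TOTAL panel the *Atr* circles lie between 59276 and 78799 over a square at 10927, whereas the *H2afx* circles lie between 955 and 1876 under a square at 3675.

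How much of this rests on the scaling differs between comparisons. The median gene was itself 0.81 higher in IP than in BO on the log2 scale. When ratios to BO were centred on the median gene, 2 of the 10 genes stayed past 2-fold, *H2afx* at 1.91 and *Mdc1* at 1.001, beside 18.3% of all genes higher and 24.1% lower. The count of higher genes was thus close to the share among all genes and did not set these genes apart. After this centring 0 of the 10 were lower, and their median was 0.48. Centring left the counts against INPUT (6 higher, beside 16.5% of genes higher and 17.9% lower) and TOTAL (7 higher and 1 lower, beside 21.1% and 25.7%) as they were. Scaling to the sum over genes gave 5 higher against BO, beside 34.1% higher and 15.0% lower of all genes, 4 higher against INPUT (without *Atm* and *Chek1*), beside 8.89% and 28.1%, and 6 higher (without *Atrip*) with 1 lower against TOTAL, beside 9.61% and 38.1%.

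*Atr* had the most reads of the 10 genes in IP. Its normalised count was 59276, 78799 and 67509 in IP libraries A, B and C, 68528 ± 9801 (SD, n = 3), against a TOTAL mean of 10927, a ratio of 6.27-fold or 2.65 on the log2 scale (2.44 to 2.85 over the IP libraries). All 3 IP libraries lay above the TOTAL mean, and the ratio stood at percentile 99.0 of all genes tested. The IP value rests on 179843 reads and the TOTAL value on 33517 to 52281 reads, so counting error was small, with a 95% interval of 2.63 to 2.67 that covers counting error only. Against INPUT the ratio was 1.66 (1.48 to 1.83), from means of 21681 in INPUT and 68746 in IP. Against BO it was 1.64 (1.43 to 1.82), from 16833 in BO and 52457 in IP, and it dropped to 0.83 after centring on the median gene.

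*Atm*, the other apical kinase, had a lower ratio than *Atr* in every comparison. In IP its count was 16393, 23510 and 17853 in libraries A, B and C, 19252 ± 3759 (SD, n = 3), against 4973 in TOTAL, a ratio of 3.87-fold or 1.95 (1.72 to 2.24). Every IP library exceeded the TOTAL mean by more than 2-fold. The ratio to INPUT was 1.18 (0.97 to 1.43), and was under 2-fold when scaled to the upper quartile (0.77) or the sum over genes (0.65). The ratio to BO was 0.50 (0.27 to 0.76), the lowest among the 10 genes on a BO mean of 10419, and came to -0.31 after centring on the median gene.

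*Atrip*, which encodes the partner that carries ATR to single-stranded DNA, was present at far fewer reads than *Atr*. Its IP count was 870, 1189 and 931 in libraries A, B and C, 997 ± 170 (SD, n = 3), against 419 in TOTAL, or 1.25 on the log2 scale (1.05 to 1.503). These 2613 IP reads give a counting interval of 1.15 to 1.35. The ratio to INPUT was 0.97 (0.79 to 1.18), just short of 2-fold, and came to 1.05 without IP library A and 1.001 without library C. The ratio to BO was 1.75 (1.55 to 1.98), or 0.94 after centring.

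*Topbp1*, the activator of ATR, had ratios near those of *Atr* against TOTAL and INPUT, and between those of *Atm* and *Atr* against BO. Counts of 20900, 28529 and 23875 in IP libraries A, B and C, with a mean of 24435 ± 3845 (SD, n = 3), compared with 4156 in TOTAL, 5.88-fold or 2.56 (2.33 to 2.78). The INPUT ratio was 1.68 (1.47 to 1.86). The BO ratio was 0.83 (0.60 to 1.03), at percentile 50.5 of all genes, from a BO mean of 10524.

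**Figure D2:**
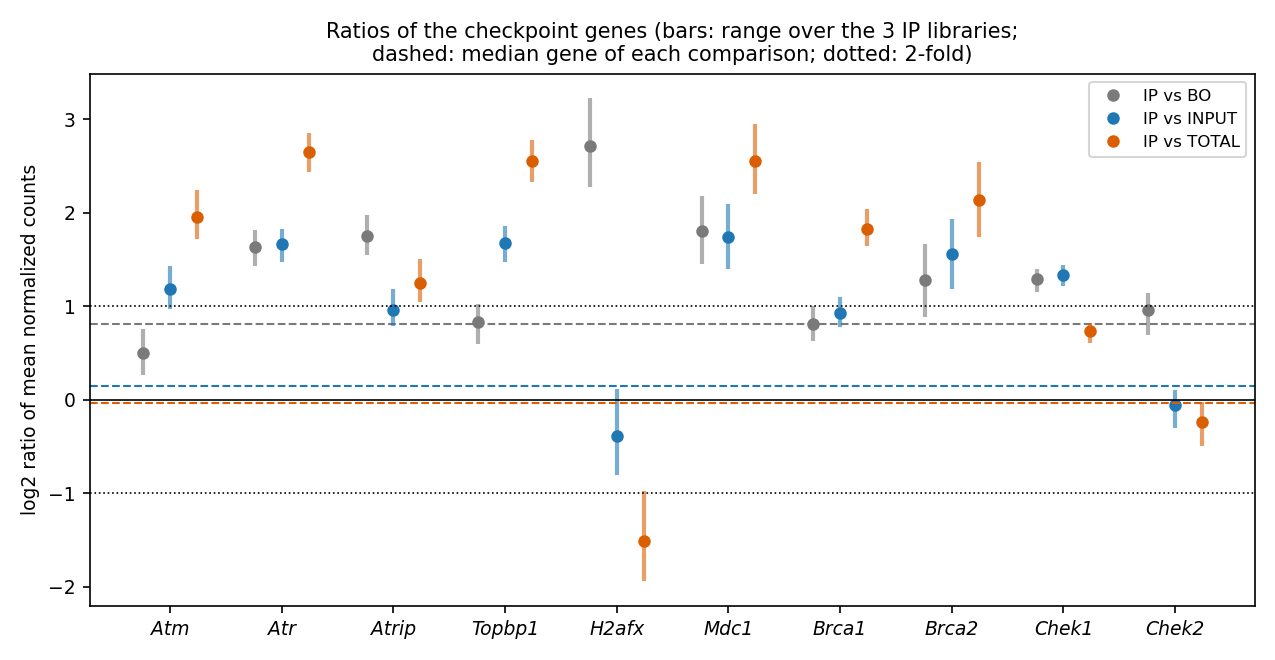
Log2 ratios of mean normalised counts for each checkpoint gene in IP vs BO, IP vs INPUT and IP vs TOTAL. Points are ratios of means, bars the range over the 3 IP libraries, dashed lines the median gene of each comparison (0.81, 0.15 and -0.03) and dotted lines 2-fold. *Atr*, *Mdc1* and *Brca2* have all points above the upper dotted line, but the share of all genes that do was not counted. *H2afx* is above the upper dotted line in IP vs BO and below the lower one in IP vs TOTAL.

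*H2afx*, the gene of the histone variant that both kinases phosphorylate, had the ratio most unlike the others. Its IP count was 955, 1876 and 1047 in libraries A, B and C, 1293 ± 507 (SD, n = 3), against 3675 in TOTAL. That is 0.35-fold, or -1.51 on the log2 scale, with -1.94, -0.97 and -1.81 for the single IP libraries. All 3 IP libraries were below the TOTAL mean, and library B was just short of 2-fold. Without library B the ratio was -1.87. Against INPUT the mean of 1693 lay inside the range of the IP libraries (973 to 1832), and the ratio was -0.39 (-0.80 to 0.11). Against BO it was the highest of the 10 genes, 2.72 (2.28 to 3.23), from 149 in BO to 987 ± 371 in IP, and stood at percentile 96.3 of all genes. The BO mean rests on 297 to 624 reads, with a counting interval of 2.55 to 2.90 for the ratio.

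The *H2afx* transcript is also built differently from the other 9. Histone genes that follow DNA replication end in a 3′ stem-loop in place of a poly(A) tail, and the *H2afx* transcript is known to be made in both forms. A search of the GENCODE M21 transcripts for the histone 3′ stem-loop consensus, on the sense strand, found it in 48 of 19888 genes of the tables, or 0.241%. By symbol, 41 of these 48 are histone genes. *H2afx* was the only 1 of the 10 with a match. The match is at chr9:44335240-44335255 in mm10, on the plus strand, at bases 547 to 562 of 1384, with 822 nt of annotated transcript after it. It is shown because the ratio of *H2afx* resembled that of the other genes with the match. The part of the stem-loop in that ratio was not tested. Capitals mark the 16 matching bases:
H2afx stem-loop: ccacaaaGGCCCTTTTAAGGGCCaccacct
Of the 48 genes with the match that passed the limit on means, *H2afx* included, 39 were lower and 2 higher in IP than in TOTAL past 2-fold, and the median was -1.89, beside the 26.2% lower and 20.4% higher of all genes. These genes were picked after the values of *H2afx* were seen. Against INPUT, 9 of 42 were lower and 2 higher, with a median of -0.42, beside 14.6% lower and 20.5% higher of all genes. Against BO, 33 of 38 were higher and 2 lower, with a median of 2.20, beside 43.9% and 11.2%. Of genes with a longest transcript under 2000 nt, 64.8% were higher against BO and 8.19% against TOTAL. Their share lower is not given here, so they are not set beside the lower counts of the genes with the match. Against INPUT 19.6% of them were higher, near the 20.5% of all genes. The part of length was not tested. *H2afx* was at -1.51 against TOTAL, -0.39 against INPUT and 2.72 against BO, the same order as the medians of the genes with the match. Reads were made from RNA depleted of rRNA without selection for poly(A), and the tables do not separate the 2 forms of the transcript.

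*Mdc1*, whose protein binds phosphorylated H2AX, was past 2-fold in each IP library of each comparison. Counts were 7744, 13017 and 9031 in IP libraries A, B and C, 9931 ± 2749 (SD, n = 3), against 1684 in TOTAL, 5.90-fold or 2.56 (2.20 to 2.95). Against INPUT the ratio was 1.74 (1.41 to 2.10), the highest of the 10 genes there. That rank rested on IP library B, without which *Mdc1* was at 1.524, below *Atr* at 1.576 and *Topbp1* at 1.575. Against BO it was 1.81 (1.45 to 2.18), and 1.001 relative to the median gene. Unlike *H2afx*, *Mdc1* thus had ratios of one sign and of a similar size against INPUT and BO.

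*Brca2*, which acts at resected ends in homologous recombination, was higher in IP than *Brca1* by all 3 ratios. The IP count of *Brca2* was 11898, 20784 and 14372 in libraries A, B and C, 15685 ± 4586 (SD, n = 3), against 3559 in TOTAL, 4.41-fold or 2.14 (1.74 to 2.55). Its ratios were 1.56 (1.19 to 1.94) to INPUT and 1.29 (0.89 to 1.67) to BO, the latter 0.48 after centring. *Brca1*, which acts upstream in end resection and in marking unsynapsed axes, had 4878, 6390 and 5254, a mean of 5507 ± 787 (SD, n = 3), against 1555 in TOTAL, 3.54-fold or 1.82 (1.65 to 2.04). Against INPUT *Brca1* was at 0.93 (0.78 to 1.11), just under 2-fold, and at 1.001 without IP library A. Against BO it was at 0.81 (0.63 to 1.001), the level of the median gene.

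The 2 effector kinases had low counts and unlike ratios. *Chek1*, the kinase downstream of ATR, had counts of 774, 870 and 900 in IP libraries A, B and C, 848 ± 66.0 (SD, n = 3), against 509 in TOTAL, a ratio of 0.74 (0.60 to 0.82) that was under 2-fold in every library. Against INPUT the ratio was 1.33 (1.22 to 1.44), but 0.93 and 0.80 when scaled to the upper quartile or the sum over genes. Against BO it was 1.29 (1.16 to 1.40), or 0.48 after centring. *Chek2*, the kinase downstream of ATM, had 116, 161 and 141 in IP, 139 ± 22.5 (SD, n = 3), against 164 in TOTAL and 146 in INPUT, ratios of -0.23 (-0.50 to -0.03) and -0.06 (-0.30 to 0.11). The counting intervals were -0.43 to -0.04 and -0.26 to 0.14, and the sign against INPUT turned to 0.05 without IP library A. Against BO it was 0.96 (0.70 to 1.14), from 54.4 in BO, with a counting interval of 0.66 to 1.29, and came to 1.07 without library A. With 365 reads in IP in all, *Chek2* was the least covered of the 10 genes.

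The spread over the IP libraries was not alike for all members. On the TOTAL scale, the coefficient of variation had a median of 16.6% over the 10 genes and 13.2% over the 10263 genes with an IP mean of at least 100. It was 39.2% for *H2afx*, 29.2% for *Brca2* and 27.7% for *Mdc1*, at percentiles 99.3, 96.3 and 95.3 of those genes, and 7.78% for *Chek1*. Library B held the highest count for 9 of the 10 genes, all but *Chek1*, as it did for 72.8% of all genes on this scale. The IP values of *H2afx*, *Brca2* and *Mdc1* thus moved most with the library, but no library reversed the sign of their ratios to TOTAL or BO.

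Levels can be compared between genes only per length. In TOTAL, *H2afx* had the highest mean per kb of its longest transcript (2655), followed by *Atr* (1349), *Topbp1* (796) and *Atm* (507), and *Chek2* had the lowest (72.1). The level of *H2afx* stood at percentile 98.4 of genes per kb and that of *Chek2* at percentile 35.4. In IP the order was *Atr* (8458), *Topbp1* (4677), *Atm* (1961), *Brca2* (1463), *Mdc1* (1354), *H2afx* (934), *Brca1* (838), *Atrip* (235), *Chek1* (223) and *Chek2* (61.2) per kb. *Atr* and *Topbp1* were apart from each other and from *Atm* in every library, and *Chek2* was below all others. From *Atm* through *Brca1*, and again between *Atrip* and *Chek1*, the ranges of neighbours over the IP libraries overlapped. By share of the counts of these 10 genes, *Atr* took 34.6% in TOTAL and 46.7% in IP, and *H2afx* went from 11.6% to 0.882%. With the median transcript of each gene in place of the longest, *Atm* came first in TOTAL and *H2afx* had rank 5, so the order depends on which transcripts are made.

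The ratio to TOTAL followed transcript length closely among these genes. All 6 members with a longest transcript of 5000 nt or more (*Atm*, *Atr*, *Topbp1*, *Mdc1*, *Brca1*, *Brca2*) were higher in IP than in TOTAL past 2-fold, against 1 of the 4 shorter members, *Atrip*. Among all genes tested, 34.7% of the 3206 with 5000 nt or more, 19.0% of the 7868 with 2000 to under 5000 nt and 8.19% of the 2920 shorter ones were higher. Pearson's r between the log2 ratio and the log of the length was 0.91 over the 10 members and 0.44 over 13994 genes, given as a description, since genes share libraries and a longer transcript collects more reads. The relation was of the other sign against BO, with r of -0.52 and -0.32, and there 21.9% of the long genes and 64.8% of those under 2000 nt were higher. Against INPUT r was 0.85 over the members but 0.11 over all genes. The part of length in the ratios of the members was not tested.

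**Figure D3:**
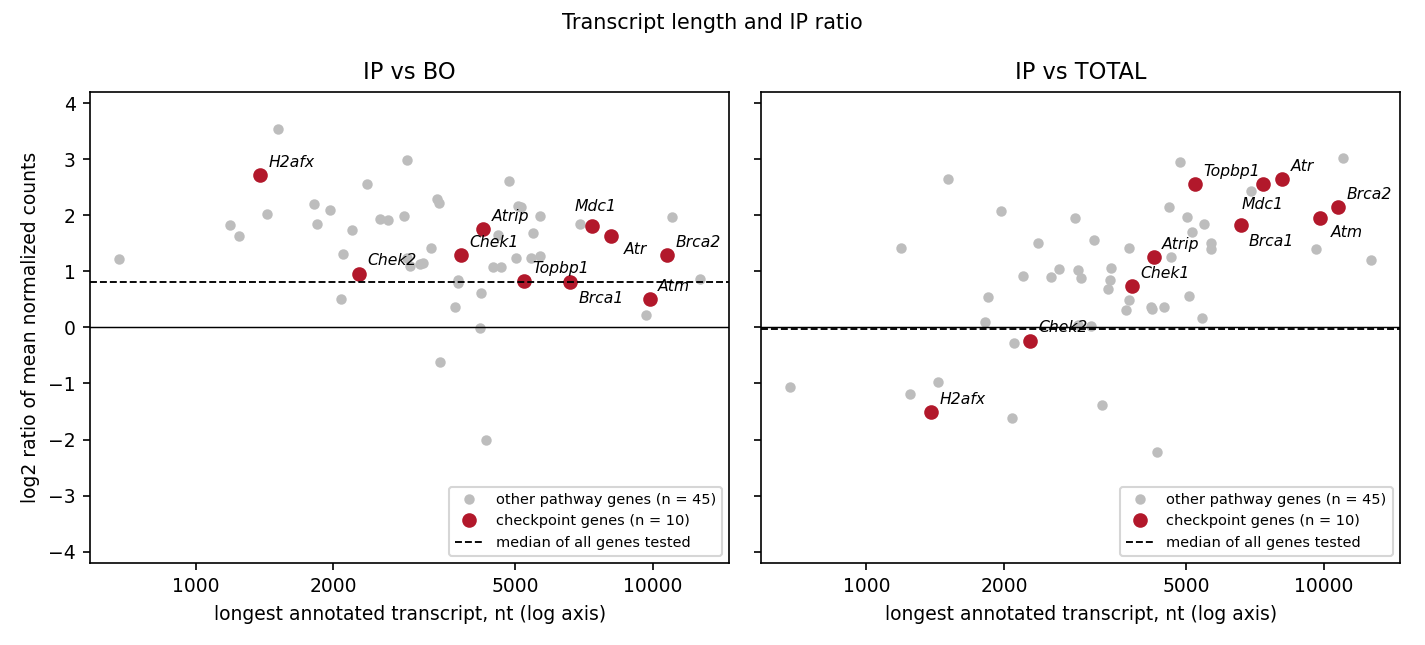
Length of the longest annotated transcript (nt, log axis) and log2 ratio of IP to BO and to TOTAL. Red points are the 10 checkpoint genes, grey points 45 other pathway genes with a matched transcript and the dashed line is the median of all genes tested. *H2afx*, at 1384 nt, is lowest of the red points against TOTAL (-1.51) and highest against BO (2.72).

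The values against TOTAL join 2 steps, the gradient and the precipitation, and these can be set apart through the IP libraries that the tables share. The ratio of INPUT to TOTAL obtained this way is relative to the median gene and crosses tables that were normalised separately. It was highest for *Atr* at 1.11, followed by *Brca1* at 1.02, *Topbp1* at 1.002, *Mdc1* at 0.94, *Atm* at 0.89 and *Brca2* at 0.70, which lie between percentiles 85.8 and 97.5 of 13566 genes. *Atrip* was at 0.41, *Chek2* at -0.05, *Chek1* at -0.47 and *H2afx* at -0.99. Relative to the median gene, the 6 long members were thus higher in the pooled fractions than in the lysate, and the short *H2afx* was lower. The ratio of BO to INPUT, obtained in the same way, was 1.40 for *Topbp1* and 1.23 for *Atm*, the highest of the 10, and -2.56 for *H2afx*, at percentile 0.693 of genes. On bare beads *Topbp1* and *Atm* were thus the highest of the members relative to INPUT, and *H2afx* the lowest.

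The rest of the pathway was read from a list of 49 genes, of which 48 were in the tables (all but *Rnf212*) and passed the limit on means. Against TOTAL, 23 of 48 were higher past 2-fold and 6 lower, with a median of 0.91, beside 20.4% higher and 26.2% lower of all genes. Against INPUT 27 were higher and 1 lower, with a median of 1.06, beside 20.5% and 14.6%. Against BO 37 were higher and 1 lower, with a median of 1.64, beside 43.9% and 11.2%, or 21 higher and 2 lower after centring on the median gene, beside 18.3% and 24.1%. Scaling to the sum over genes left 11 higher and 7 lower against TOTAL, beside 9.61% and 38.1%, and 11 higher and 2 lower against INPUT, beside 8.89% and 28.1%.

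The groups of the list had different medians, and their counts are read against the same shares of all genes, 20.4% higher and 26.2% lower against TOTAL, 20.5% higher against INPUT and 43.9% higher against BO. Meiotic users of the checkpoint stood highest, with 4 of 5 higher against TOTAL (median 2.65) and 5 of 5 against INPUT (2.05) and BO (2.21). *Hormad1* is in this group and among the 5 spermatocyte markers, and it is the median of both sets against TOTAL. *Scml2*, a Polycomb protein of the male germline, was at 2.94 (2.71 to 3.11) and *Hormad1*, which marks unsynapsed axes and recruits ATR, at 2.65 (2.48 to 2.91) against TOTAL. *Hormad1* was the highest of the list against INPUT (2.98, with 2.81 to 3.26 over the IP libraries) and BO (3.55, with 3.37 to 3.83). Partners of BRCA1 and BRCA2 had 4 of 7 higher and 2 lower against TOTAL (median 1.43), or 2 higher and 2 lower when scaled to the sum over genes, beside 9.61% and 38.1% of all genes. Without IP library A 1 was lower. The 2 were *Bccip* at -1.19 (-1.69 to -0.89) and *Shfm1* at -1.56 (-1.80 to -1.24), both genes of small BRCA2-binding proteins, which were at 0.62 (0.13 to 0.88) and 1.07 (0.84 to 1.41) against INPUT.

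Sensors and mediators of ATR had 6 of 14 higher and 1 lower against TOTAL (median 0.55), and 8 higher against INPUT (median 1.07) and 11 against BO (1.48). Scaled to the sum over genes, 3 were higher against TOTAL, beside 9.61% of all genes, and 2 against INPUT, beside 8.89%, and after centring 6 were higher against BO, beside 18.3% of all genes. *Rad17*, which loads the 9-1-1 clamp, was at 1.96 (1.81 to 2.09) against TOTAL and 2.12 (1.99 to 2.28) against INPUT. *Etaa1*, an ATR activator that works apart from TOPBP1, was at 0.37 (0.03 to 0.59) against TOTAL, and at -0.01 (-0.36 to 0.18) it was among the lowest of the list against BO. The one lower sensor was *Rpa3*, the smallest subunit of the single-strand binding complex, at -1.06 (-1.54 to -0.78) against TOTAL, a call that was lost with a pseudocount of 10 and without IP library B. Break sensing and chromatin response had 5 of 12 higher and 1 lower against TOTAL (median 0.89), or 1 higher and 2 lower when scaled to the sum over genes, beside 9.61% and 38.1% of all genes. Without IP library B or C 2 were lower. The lower gene, *Brcc3*, a deubiquitinase of the BRCA1-A complex, was the lowest of the whole list in all 3 comparisons, at -2.22 (-2.43 to -1.89) to TOTAL, -1.53 (-1.72 to -1.24) to INPUT and -2.01 (-2.22 to -1.70) to BO, with 278 reads in IP.

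Targets and cell cycle brakes had 4 of 10 higher and 2 lower against TOTAL (median 0.71). Without IP library B 2 were higher, and 1 was higher when scaled to the upper quartile, beside 15.4% of all genes, or to the sum over genes, beside 9.61%. The lower genes were *Trp53* at -1.38 (-2.23 to -0.62 over the IP libraries) and *Cdkn1a*, its CDK inhibitor target, at -1.61 (-2.17 to -1.10), with 339 and 135 reads in IP. Against INPUT both were within 2-fold, at -0.78 (-1.60 to -0.05) and -0.35 (-0.88 to 0.13), but *Trp53* was past it at -1.19 when scaled to the upper quartile, -1.31 when scaled to the sum over genes and -1.36 without IP library B. *Wee1*, the kinase that holds CDK1 inactive, was at 1.06 (0.74 to 1.41) against TOTAL and 1.37 (1.07 to 1.68) against INPUT but at -0.61 (-0.93 to -0.28) against BO, where its mean was 2639. *Pkmyt1*, a kinase of the same family, was at 2.99 (2.32 to 3.49) against BO on a BO mean of 3.07, that is, as few as 6 reads. The genes whose 3 ratios lay nearest to the medians of the 10 members, among 11111 with a TOTAL mean of at least 100, were *Inpp5f*, *Supt6*, *Ppp1r10*, *Myo5a* and *Map3k12*, at distances of 0.08 to 0.14 on the log2 scale.

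**Figure D4:**
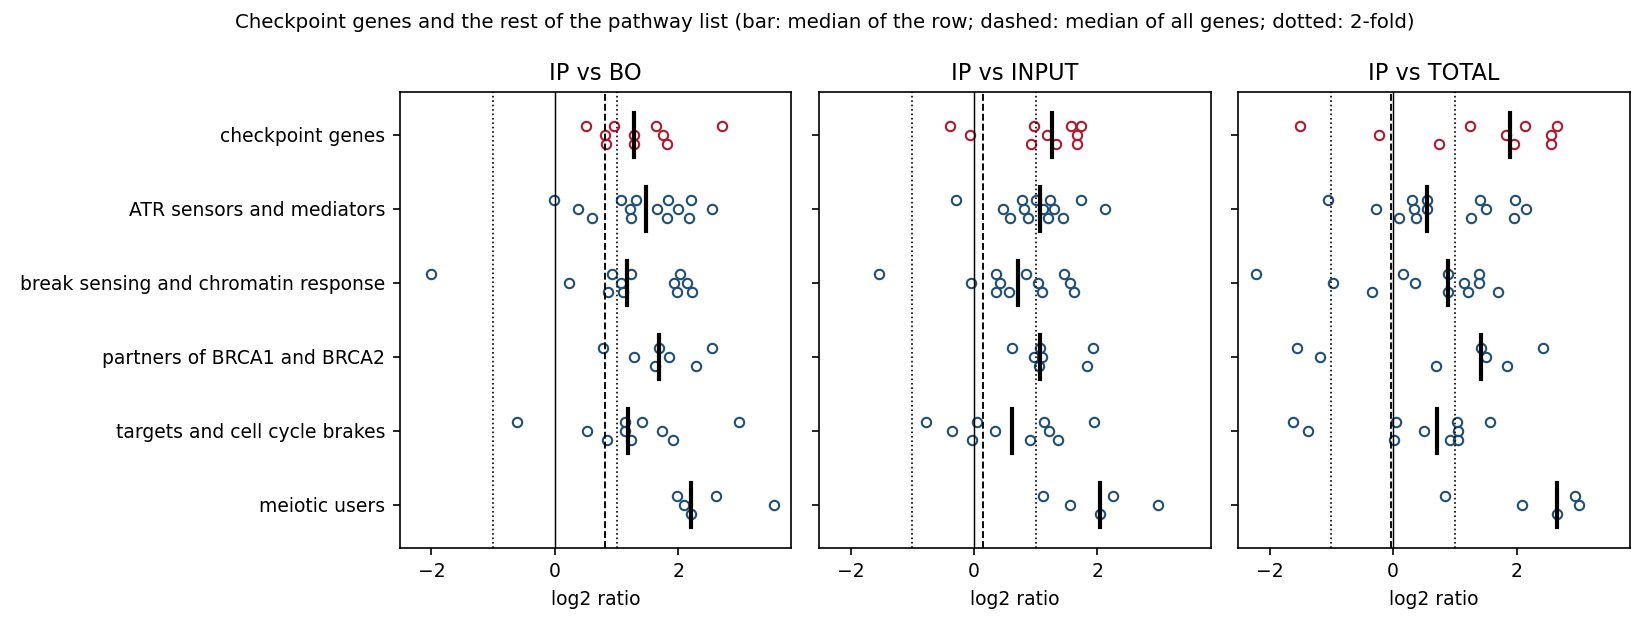
Log2 ratios of IP to BO, INPUT and TOTAL for the 10 checkpoint genes (red) and for the other pathway genes by group (blue), 1 point a gene. The thick bar is the median of the row, the dashed line the median of all genes and the dotted lines 2-fold. The checkpoint genes have a median of 1.89 against TOTAL, below the 2.65 of the meiotic users and above the other groups.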

How the data were processed

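RNA-seq libraries from TOTAL, INPUT, BO and IP were analysed as deposited, 3 per group. Per the labels, libraries were stranded, made from total RNA after rRNA depletion, and the submitters' processing notes name mm10, STAR v2.6.0c and DESeq2 v1.24.0. How gene counts used strand, and which annotation, is not given in the sources used here. For genes, the authors deposited the mean normalised count of each group as a signal rounded to 3 decimals, in 3 tables of 802920 rows, IP against BO, INPUT and TOTAL, each normalised separately. The deposited tables also hold the authors' own mean over both groups, log2 fold changes, standard errors, test statistics, p-values and adjusted p-values, none of which was used. Repeat subfamilies have an upper quartile normalised signal per library, deposited by the authors.

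Rows naming no gene (4 per table, unmapped, multimapped, unassigned and ambiguous reads) held 22.1% of IP, 37.9% of BO, 30.6% of INPUT and 38.6% of TOTAL counts relative to the counts on genes and these rows together, and were left out. Each IP mean is a sum over 3 libraries of reads times a step, and the same reads enter 3 tables with different steps, so reads per IP library were solved from the 3 equations. Whole solutions within 0.0006 were found for 100% of 19151 genes with an IP mean above 0, and the next best solution was 0.0415 away at the median. This was found after seeing the data and tested on simulated data. Reads behind other means are bounded by their largest and smallest step. Ratios are log2 of means plus 1. Genes under a mean of 10 over the 2 groups were left out of the background. The authors' tests were set aside, and no test was run on the means used, which give no value per library for 3 of the 4 groups. Intervals (95%, conditional binomial) cover counting error only. Transcripts came from GENCODE M21, on mm10, and 19888 of 20981 genes matched by symbol.

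Members and lists were chosen with earlier results of these data known. From the pathway list, the text names the 3 highest and 3 lowest genes of each comparison plus *Trp53* and *Cdkn1a*, except for values not reported here. *Bccip* and *Rpa3* were named, and the search for the histone stem-loop added, after values were seen. The 5 nearest genes have the smallest Euclidean distance of their 3 ratios to the medians of the members. Alternatives were pseudocounts of 0.1 and 10, 3 scalings, minimum means of 0 and 100, and leaving out each IP library. Python 3.11.15, pandas 2.3.3, scipy 1.17.1 and matplotlib 3.10.9 were used.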

Additional observations from a re-analysis of the deposited data

How the results depend on the processing

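The signs of the member ratios held under both pseudocounts, all 3 scalings and the loss of each IP library, except for *Atm* against BO, which went from 0.50 to -0.31 on centring and -0.17 on scaling to the upper quartile, and *Chek2* against INPUT, which went from -0.06 to 0.05 without IP library A. The counts of members past 2-fold ranged, with 1 IP library left out, from 6 to 7 against BO, from 6 to 8 against INPUT and stayed at 7 higher and 1 lower against TOTAL. The other ranges were 35 to 38 higher pathway genes against BO, 24 to 29 higher and 1 to 2 lower against INPUT, and 21 to 23 higher and 5 to 7 lower against TOTAL. Without library B, 2 pathway genes were lower against INPUT in place of 1. Centring IP vs BO on the median gene gave 2 members, 21 higher and 2 lower pathway genes, and 18.3% higher and 24.1% lower of all genes, where the main values were 6, 37, 1, 43.9% and 11.2%. Scaling IP vs BO to the upper quartile gave 3, 23, 2, 22.3% and 21.5%. For IP vs INPUT, the upper quartile gave 13 higher and 2 lower pathway genes with 11.03% and 24.4% of all genes, and the sum over genes 11 and 2 with 8.89% and 28.1%, where the main values were 27 and 1 with 20.5% and 14.6%. For IP vs TOTAL, the sum over genes gave 11 higher pathway genes and 9.61% of all genes, against 23 and 20.4%. These shifts follow from the scaling, which moves all ratios of a comparison together. Minimum means of 0 and 100 kept the other counts within 1.5 times.

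No paired analysis was possible because the gene means used have no value per library outside IP and the IP libraries carry no replicate number. For the same reason libraries of BO, INPUT and TOTAL were not left out. Repeat loci inside the genes were not analysed, since the tables give them no coordinates. Because only means of TOTAL, INPUT and BO were used, differences were not set against the spread of those libraries, and *Chek2*, *Cdkn1a* and *Pkmyt1* are limited by depth.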
